A study of Mus musculus with 12 samples.

Results

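Cytosolic nucleic acid sensors were followed through 9 genes, chosen by symbol: Ddx58 (RIG-I), Ifih1 (MDA5), Dhx58 (LGP2), Mavs, Mb21d1 (cGAS), Tmem173 (STING), Zbp1, Eif2ak2 (PKR) and Eif2ak1 (HRI). All 9 were among the 23997 genes listed and among the 10581 that passed the filter on low values. The values come from RNA-seq of bone marrow-derived macrophages (BMDMs), which are macrophages grown from bone marrow cells with M-CSF. The 12 libraries came from WT or Pim1-/- C57BL/6 male mice, in 4 groups of 3: untreated WT, untreated Pim1-/-, WT given LPS at 100 ng/ml for 4 h, and Pim1-/- given the same LPS. The Pim1-/- mice were made with CRISPR/Cas9, which removed exons I to V of Pim1. LPS is a bacterial lipid that acts through TLR4. The labels do not say whether the 3 libraries of a group came from separate mice or cultures, so p-values measure only the spread between these libraries.

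RIG-I and MDA5 are helicases that bind viral RNA and signal through MAVS on the mitochondrial surface. cGAS binds DNA in the cytosol and makes cGAMP, which activates STING on the endoplasmic reticulum. Both routes end in kinases that activate IRF3 and in the production of type I interferon, and interferon in turn raises the genes for several of the sensors. ZBP1 binds Z-form nucleic acid and engages RIPK3, and PKR binds double-stranded RNA and phosphorylates eIF2α, which lowers translation. The label covers 3 genes whose products are not themselves receptors of this kind. Mavs and Tmem173 encode adaptors, although STING binds cGAMP, and Eif2ak1 encodes HRI, an eIF2α kinase regulated by heme.

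Pim1 itself was measured at 24.96, 21.5 and 22.3 FPKM in the untreated WT libraries and at 8.70, 8.00 and 9.51 FPKM in the untreated Pim1-/- libraries. FPKM counts fragments per kilobase of transcript, scaled per library. After LPS the WT libraries held 665, 630.2 and 641 FPKM and the Pim1-/- libraries 216, 205 and 236 FPKM. The Pim1-/- libraries were lower in both treatments without overlap, at 38.1% of the WT mean untreated and 33.9% after LPS, and a value per gene does not show which exons the remaining fragments came from. Exons of Pim1 also overlap those of Gm26885 on the other strand.

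Windows from 250 bases before to 50 bases after the start of each gene were searched on both strands for letters bound by factors of the interferon and NF-κB routes. RefSeq windows on GRCm38.p6 were matched for 6 of the 9 members, Ddx58, Ifih1, Mavs, Mb21d1, Eif2ak2 and Eif2ak1. Searches used the letters GAAANNGAA, the core of the interferon-stimulated response element (ISRE), which 8.56% of all 32851 windows held, TTCNNNGAA, the GAS letters bound by STAT dimers, held by 8.30%, and GGANNTTCC, a core of the NF-κB site, held by 4.26%. Of the 6 windows, 3 held the ISRE letters, 1 held the GAS letters and 0 held the NF-κB letters, and the GAS search can overlap an ISRE match. The stretches with matches follow 5′ to 3′ on the strand of the gene, with the matched letters in capitals, because they show where these 3 genes carry them.
Ddx58, chr4:40239804-40239833, minus strand: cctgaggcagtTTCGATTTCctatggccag
Ifih1, before the start, chr2:62646334-62646393, minus strand: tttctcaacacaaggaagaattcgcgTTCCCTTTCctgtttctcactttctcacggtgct
Ifih1, after the start, chr2:62646206-62646235, minus strand: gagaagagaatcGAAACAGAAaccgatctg
Eif2ak2, after the start, chr17:78882533-78882562, minus strand: tccgccggGAAAACGAAACAGAAgagaacc
Eif2ak2, before the start, chr17:78882717-78882776, minus strand: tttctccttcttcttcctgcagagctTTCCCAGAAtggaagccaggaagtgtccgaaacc
In Ddx58 the ISRE letters began 3 bases past the start base and read on the opposite strand. Ifih1 held them at position -112, counted from the start base, on the opposite strand and 32 bases past the start on the gene's own strand. In Eif2ak2 a pair of overlapping ISRE matches began 18 and 24 bases past the start, and the GAS letters began at position -178. The windows of Mb21d1, Mavs and Eif2ak1 held none of the 3 sets of letters. The 100 bases before the start of Mb21d1, which rose after LPS, and of Mavs, which fell, are shown for comparison.
Mb21d1, chr9:78443238-78443337, minus strand: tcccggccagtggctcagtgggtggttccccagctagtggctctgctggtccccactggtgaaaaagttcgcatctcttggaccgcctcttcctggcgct
Mavs, chr2:131233963-131234062, plus strand: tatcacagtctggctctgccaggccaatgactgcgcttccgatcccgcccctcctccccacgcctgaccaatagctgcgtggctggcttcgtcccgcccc
A match is a run of letters and does not show that a factor binds there, and no match says only that the letters are not in that window.

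In untreated WT cells the most abundant transcripts were Eif2ak1, Tmem173 and Mavs, with means of 26.5, 21.5 and 18.1 FPKM and no overlap between neighbours in this order. Ddx58, Eif2ak2 and Dhx58 followed at 7.74, 7.23 and 7.14 FPKM, and the libraries of Eif2ak2 and Dhx58 overlapped. Ifih1 at 4.79, Zbp1 at 3.08 and Mb21d1 at 1.70 FPKM were the lowest. After LPS the order in WT cells was Ifih1 (323 FPKM), Zbp1 (290.2 FPKM), Ddx58 (175 FPKM), Eif2ak2 (158 FPKM) and Dhx58 (154 FPKM), the last pair overlapping, then Eif2ak1, Tmem173, Mb21d1 and Mavs between 20.0 and 4.90 FPKM. The genes that led untreated cells, an eIF2α kinase and both adaptors, therefore stood below 5 of the inducible sensors after LPS. In untreated Pim1-/- cells Eif2ak1 and Tmem173 overlapped at the top (17.9 FPKM each), Dhx58 overlapped with Mb21d1, and Zbp1 was last at 0.305 FPKM. After LPS the order in Pim1-/- cells was that of WT except that Dhx58, at 134 FPKM, overlapped with Ddx58, at 132 FPKM, ahead of Eif2ak2.

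**Figure D1:**
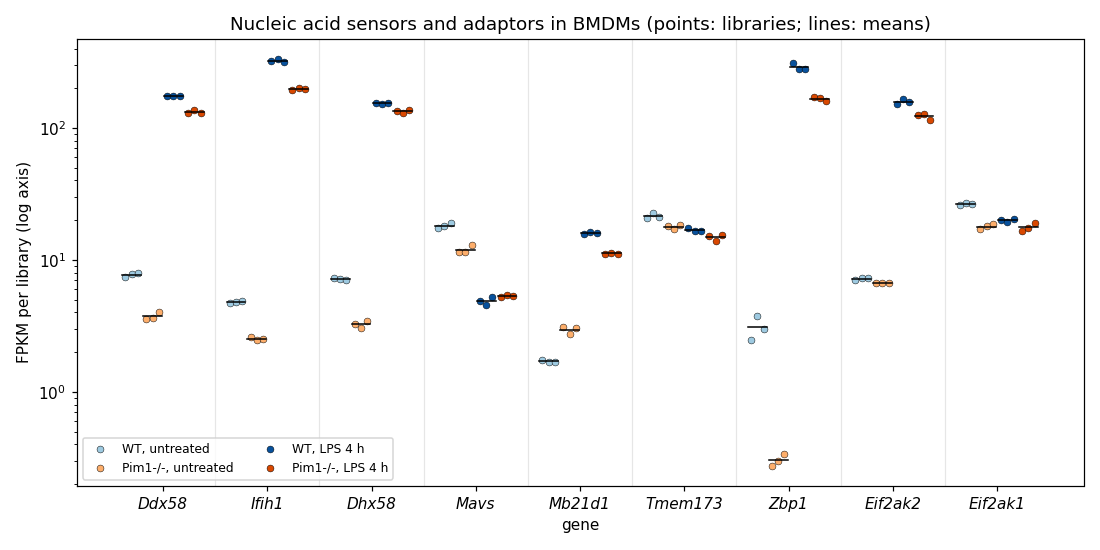
FPKM of the 9 genes in each of the 12 libraries (points, log axis) with the group mean (line), by genotype and treatment. Ddx58, Ifih1, Dhx58, Zbp1 and Eif2ak2 lie above 100 FPKM in every LPS-treated library and below 10 FPKM in every untreated one, while Mavs moves the other way.

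The comparison of LPS with no treatment asks which members respond to TLR4 stimulation in each genotype. In WT cells 6 of the 9 members rose more than 2-fold (limma on log2(FPKM + 1), p under 0.05 and FDR under 0.1) and 1, Mavs, fell by as much. Over all genes tested 20.1% were called higher and 14.7% lower by this rule. In Pim1-/- cells the same 6 members were called higher and Mavs lower, where 14.6% and 10.4% of all genes were. By an FDR under 0.1 with no fold threshold, 6 members were higher and 3 lower in WT cells, against 45.8% and 45.4% of all genes. In Pim1-/- cells 6 were higher and 2 lower by that rule, against 43.2% and 44.0%. Libraries with and without LPS did not overlap for 9 members in WT (90.4% of all genes) and for 8 in Pim1-/- cells (83.8% of all genes). The median log2 change over the 9 members was 4.25 in WT and 4.02 in Pim1-/- cells, and over all genes tested 0.0015 and -0.013.

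Among the RNA helicases, Ddx58 (chr4:40203773-40239828, minus strand, GRCm38, GENCODE M21) encodes RIG-I, which reads short double-stranded RNA with a 5′ triphosphate. It was measured at 7.46, 7.83 and 7.94 FPKM in untreated WT libraries and at 174, 176 and 174 FPKM after LPS. In Pim1-/- libraries it stood at 3.54, 3.64 and 4.00 FPKM untreated and at 129, 136 and 131 FPKM after LPS. Every Pim1-/- library was below every WT library of the same treatment. The log2 change with LPS was 4.33 (SE 0.04, adjusted p = 3.1e-20) in WT and 4.81 (SE 0.04, adjusted p = 1.0e-20) in Pim1-/- cells.

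Ifih1 (chr2:62595798-62646255, minus strand) encodes MDA5, which forms filaments on long double-stranded RNA. Untreated WT libraries held 4.69, 4.80 and 4.90 FPKM and Pim1-/- libraries 2.60, 2.49 and 2.49 FPKM. LPS brought the WT libraries to 321, 332 and 316 FPKM and the Pim1-/- libraries to 194, 201 and 198 FPKM. The genotypes were apart in both treatments, and the log2 changes with LPS were 5.81 (SE 0.04) in WT and 5.82 (SE 0.04) in Pim1-/- cells. As a ratio of mean FPKM, without a pseudocount, they were 67.4-fold and 78.3-fold. Before LPS Ifih1 was below Ddx58 in every library, at 0.619 ± 0.008 of it in WT (SD, n = 3), and after LPS it was above, at 1.85 ± 0.037.

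Dhx58 (chr11:100694884-100704271, minus strand) encodes LGP2, a relative of both helicases that has no CARD domains and cannot signal to MAVS on its own. It was at 7.29, 7.12 and 7.02 FPKM in untreated WT libraries and at 3.27, 3.03 and 3.43 FPKM in untreated Pim1-/- libraries. After LPS it was at 156, 152 and 155 FPKM in WT and at 134, 129 and 137 FPKM in Pim1-/- libraries. As a ratio the gap between genotypes was wide without LPS, with Pim1-/- cells at 45.4% of the WT mean, and narrow with it, at 86.6%. In FPKM the gap was larger after LPS. Exons of Dhx58 overlap those of Dhx58os on the other strand. The libraries were made with a stranded mRNA kit. Since no source used here gives the strand setting of the counting, the share of antisense reads is uncertain.

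Mavs (chr2:131234063-131248025, plus strand) encodes the adaptor that RIG-I and MDA5 share. It was the member that fell most with LPS, from 17.4, 17.9 and 19.0 FPKM to 4.92, 4.52 and 5.26 FPKM in WT libraries. In Pim1-/- libraries it went from 11.4, 11.5 and 13.03 FPKM to 5.21, 5.37 and 5.30 FPKM. The genotypes were apart without LPS and overlapped with it. The log2 change with LPS was -1.70 (SE 0.06, adjusted p = 1.5e-13) in WT and -1.04 (SE 0.06, adjusted p = 1.2e-10) in Pim1-/- cells. The latter was -0.98 (adjusted p = 6.2e-10), short of 2-fold, without untreated Pim1-/- replicate 3.

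In the DNA route, Mb21d1 (chr9:78430526-78443237, minus strand, annotated as Cgas) encodes cGAS, and it was the 1 member that was higher in untreated Pim1-/- cells than in untreated WT cells. The untreated values were 1.74, 1.67 and 1.69 FPKM in WT and 3.08, 2.75 and 3.05 FPKM in Pim1-/- libraries. After LPS the order turned round, with 15.8, 16.2 and 16.0 FPKM in WT and 11.2, 11.4 and 11.05 FPKM in Pim1-/- libraries. The genotypes did not overlap in either treatment. The log2 change with LPS was 2.66 (SE 0.05, adjusted p = 2.6e-17) in WT and 1.62 (SE 0.05, adjusted p = 2.1e-14) in Pim1-/- cells. Its exons overlap those of Gm8093 on the other strand, with the same limit as for Dhx58.

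Tmem173 encodes STING, which receives cGAMP and recruits TBK1. Its values stayed between 13.9 and 22.5 FPKM in all 12 libraries. Untreated libraries held 20.7, 22.5 and 21.3 FPKM in WT and 17.9, 17.3 and 18.4 FPKM in Pim1-/- cells, and LPS-treated ones 17.6, 16.6 and 16.5 FPKM in WT and 15.2, 13.9 and 15.5 FPKM in Pim1-/- cells. The genotypes were apart in both treatments by small steps. It fell by 0.33 (SE 0.05) with LPS in WT and by 0.25 (SE 0.05) in Pim1-/- cells on the log2 scale.

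Zbp1 (chr2:173206612-173218923, minus strand) showed the largest change of the 9 with LPS in both genotypes. It was at 2.45, 3.78 and 3.00 FPKM in untreated WT libraries, the widest relative spread of any member in any group (CV 21.7%), and at 0.276, 0.301 and 0.338 FPKM in untreated Pim1-/- libraries. These last values rest on an estimated 38 to 47 fragments per library. After LPS the values were 309, 282 and 279 FPKM in WT and 170.5, 169 and 161 FPKM in Pim1-/- libraries. The WT libraries were above the Pim1-/- libraries in both treatments, and the Pim1-/- mean was 9.91% of the WT mean untreated and 57.5% after LPS. The log2 change with LPS was 6.17 (SE 0.08) in WT and 7.01 (SE 0.08) in Pim1-/- cells.

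The last pair are eIF2α kinases. Eif2ak2 (chr17:78852564-78882573, minus strand) encodes PKR and was at 7.09, 7.30 and 7.29 FPKM in untreated WT libraries and at 6.68, 6.65 and 6.65 FPKM in untreated Pim1-/- libraries. After LPS it was at 152, 165 and 158 FPKM in WT and at 126, 128 and 116 FPKM in Pim1-/- libraries. Its genotype gap was small without LPS and wider with it. Its exons overlap the annotated genes Gm26637 and n-R5s29 on the other strand.

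Eif2ak1 (chr5:143817788-143904251, plus strand) encodes HRI and was at 26.2, 26.8 and 26.7 FPKM in untreated WT and at 17.1, 18.05 and 18.6 FPKM in untreated Pim1-/- libraries. With LPS it was at 20.2, 19.3 and 20.5 FPKM in WT and at 16.6, 17.3 and 19.0 FPKM in Pim1-/- libraries. It fell by 0.39 (SE 0.05, adjusted p = 2.5e-06) on the log2 scale with LPS in WT, and in Pim1-/- cells the change was -0.02 (SE 0.05, adjusted p = 0.68). Its exons overlap those of Aimp2 on the other strand, which was at means of 8.46 and 12.8 FPKM in untreated WT and Pim1-/- cells, and those of Ankrd61, which was under 0.1 FPKM in every group mean.

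**Figure D2:**
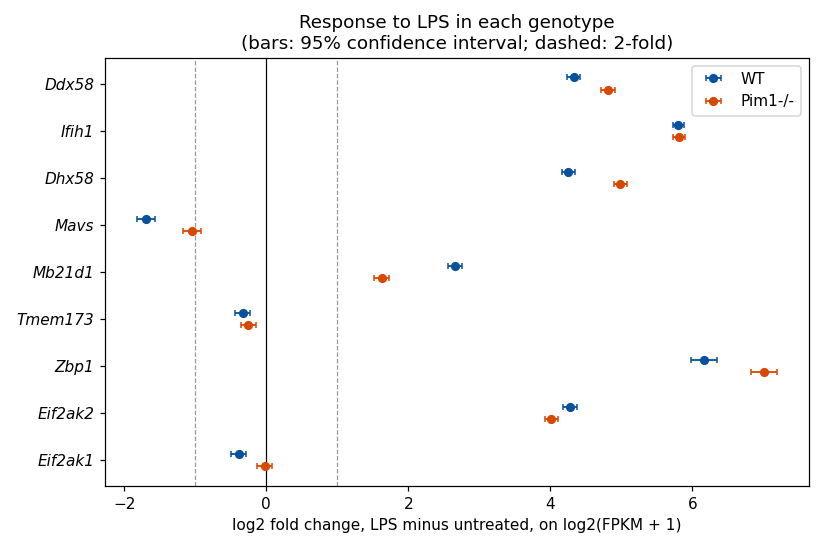
Log2 change with LPS of the 9 genes in WT and Pim1-/- cells on log2(FPKM + 1), with 95% confidence intervals and dashed lines at 2-fold. Mavs lies to the left of the 2-fold line in both genotypes, at -1.70 and -1.04, and Tmem173 and Eif2ak1 lie between the 2 lines.

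The response of Mavs, Tmem173 and Eif2ak1 depends on how libraries are scaled, because the summed FPKM of a library rose from between 452511 and 489710 untreated to between 713307 and 849323 after LPS. With every library scaled to the same sum, a setting chosen after the data were seen, the median change of all genes with LPS moved from 0.0015 to -0.71 in WT and from -0.013 to -0.62 in Pim1-/- cells. Under that scaling Mavs was at -2.51 in WT and -1.71 in Pim1-/- cells, called lower in both. Tmem173 at -1.12 and Eif2ak1 at -1.19 were then also called lower in WT cells, and in Pim1-/- cells they were lower by FDR, at -0.90 and -0.67. Under quantile normalization Tmem173 was at -0.71 and -0.51 in WT and Pim1-/- cells and Eif2ak1 at -0.83 and -0.29 (adjusted p = 8.6e-05 in Pim1-/- cells). The 6 members called higher stayed so in both genotypes under this and every other alternative.

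The comparison of Pim1-/- with WT cells asks how the libraries of the 2 genotypes differed in each treatment. In untreated cells the levels of Ddx58, Ifih1 and Dhx58 in Pim1-/- cells were 48.1%, 52.7% and 45.4% of the WT means. By the rule with a 2-fold threshold 1 member was called, Zbp1, lower with a log2 change of -1.63 (SE 0.08, adjusted p = 1.2e-10), where 3.37% of all genes were called lower and 4.40% higher. By FDR alone 8 members were lower and 1, Mb21d1, was higher, at 0.55 (SE 0.05, adjusted p = 5.4e-08), against 44.2% and 34.6% of all genes. The 3 libraries of one genotype did not overlap those of the other for all 9 members, as for 78.4% of all genes. Of the others, Ddx58 was at -0.89, Dhx58 at -0.94, Ifih1 at -0.72, Mavs at -0.56 and Eif2ak1 at -0.54, with SEs of 0.04 to 0.06. The smallest differences were those of Tmem173, -0.25 (SE 0.05), and of Eif2ak2, -0.10 (SE 0.04, adjusted p = 0.050), and the latter lost its FDR when untreated WT replicate 2 or 3 was left out (-0.10 in both, adjusted p = 0.11) and with equal FPKM sums (-0.06, adjusted p = 0.29). The median over the 9 members was -0.56 and over all genes -0.05.

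Adding 1 FPKM before taking the log shrinks changes of low genes such as Zbp1. With 0.1 in place of 1 the untreated difference of Zbp1 was -2.95, and Ddx58 and Dhx58 passed the 2-fold threshold as well.

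With the values as deposited, 8 members were lower in Pim1-/- cells after LPS by FDR and 0 were higher, against 43.4% and 37.6% of all genes. By the 2-fold rule 0 members were called, while 5.15% of all genes were called lower and 3.51% higher. Genotypes did not overlap for 8 of the 9, as for 77.5% of all genes. The decreases were largest for Zbp1, with -0.79 (SE 0.08, adjusted p = 4.7e-07), Ifih1, with -0.70 (SE 0.04, adjusted p = 2.0e-10, and -0.45 under quantile normalization), and Mb21d1, with -0.48 (SE 0.05, adjusted p = 2.0e-07). Ddx58 was at -0.40 (SE 0.04), at -0.12 under quantile normalization (adjusted p = 0.029) and at -0.20 with equal FPKM sums (adjusted p = 0.0038). Eif2ak2 was at -0.36 (SE 0.04), and at -0.07 (adjusted p = 0.13) and -0.15 (adjusted p = 0.0064) under these settings. The smallest were those of Dhx58, -0.21 (SE 0.04), Tmem173, -0.17 (SE 0.05), and Eif2ak1, -0.18 (SE 0.05). None of these passed the FDR under quantile normalization (0.08, -0.06 and -0.03, adjusted p = 0.13, 0.29 and 0.62). With equal FPKM sums they did not pass it either (-0.002, 0.02 and 0.02, adjusted p = 0.97, 0.76 and 0.78). Mavs had 0.10 (SE 0.06, 95% interval -0.03 to 0.22, adjusted p = 0.16), and ranged from 0.05 without WT LPS replicate 2 (adjusted p = 0.50) to 0.14 without WT LPS replicate 3 (adjusted p = 0.064). With the replicate number as a block its adjusted p was 0.082, which makes 1 member higher by FDR. The study had picked Ifih1, Ddx58, Eif2ak2 and Eif2ak1 among interferon-stimulated genes on these same LPS libraries, so the direction of these genes after LPS is not independent evidence.

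**Figure D3:**
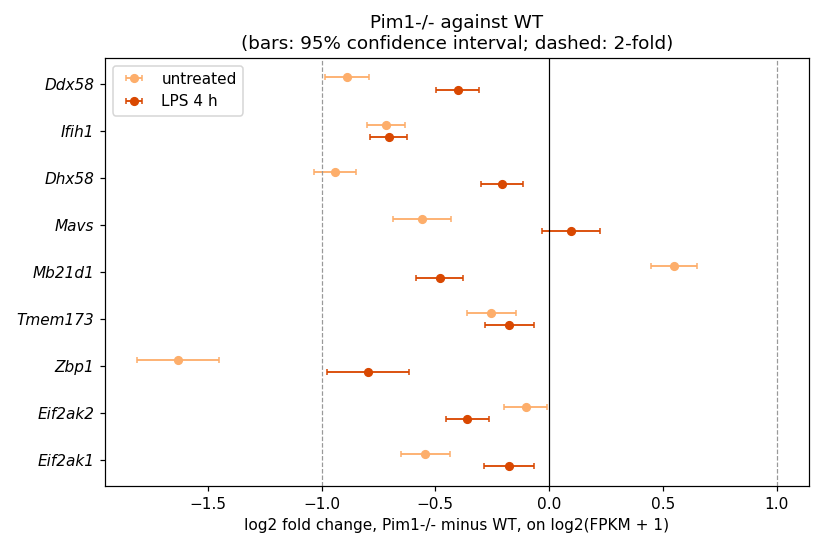
Log2 difference between Pim1-/- and WT cells for the 9 genes, untreated and after LPS, on log2(FPKM + 1) with 95% confidence intervals and dashed lines at 2-fold. Zbp1 without LPS is the 1 value outside the dashed lines, and Mb21d1 lies on opposite sides of 0 in the 2 treatments.

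**Figure D4:**
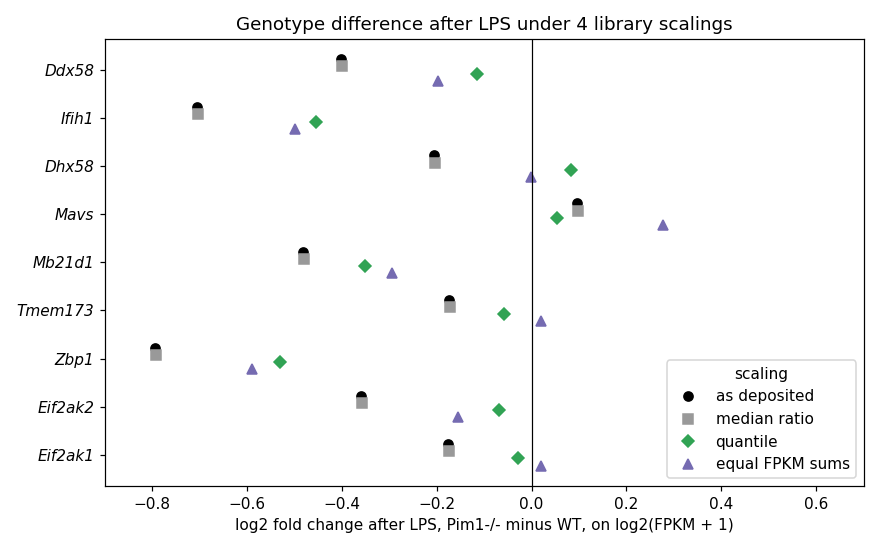
Log2 difference between Pim1-/- and WT cells after LPS for the 9 genes under 4 scalings of the libraries. Zbp1, Ifih1, Mb21d1, Ddx58 and Eif2ak2 stay left of 0 under all of them, while Dhx58, Tmem173 and Eif2ak1 each cross 0 under 1 of them. Values as deposited and under median-ratio scaling nearly coincide, at -0.402 and -0.400 for Ddx58, so these settings are not separate checks.

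With equal FPKM sums the median of all genes between genotypes after LPS moved from -0.03 to 0.13. Beside that median, Zbp1 was at -0.59, Mb21d1 at -0.29 and Mavs at 0.28 (adjusted p = 0.0024).

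The last comparison asks whether LPS acted by different amounts in the 2 genotypes, as the change with LPS in Pim1-/- cells minus that in WT cells. By FDR 5 members had a larger value in Pim1-/- cells and 2 a smaller one, against 32.7% and 35.8% of all genes. By the 2-fold rule 1 was called, Mb21d1, lower with -1.03 (SE 0.07, adjusted p = 5.1e-09), where 4.43% of all genes were called lower and 2.24% higher. Zbp1 had 0.84 (SE 0.12), and it was called with 2.16 at a pseudocount of 0.1 and with 1.55 with equal FPKM sums. Dhx58 had 0.73 (SE 0.06) and was called with 1.12 under quantile normalization. Mavs had 0.65 (SE 0.08), Ddx58 0.49 (SE 0.06), with 0.86 under quantile normalization, and Eif2ak1 0.37 (SE 0.07). For Mavs and Eif2ak1 the positive value is a smaller fall with LPS on the log2 scale. For Zbp1, Dhx58 and Ddx58 it is a larger fold rise from a lower untreated level. Their Pim1-/- mean FPKM after LPS, as deposited, stayed below that of WT. Eif2ak2 had -0.26 (SE 0.06, adjusted p = 0.0025), turned to 0.03 under quantile normalization and was at -0.10 with equal FPKM sums (adjusted p = 0.20). Ifih1 had 0.01 (SE 0.05, 95% interval -0.11 to 0.13, adjusted p = 0.87) and Tmem173 0.08 (SE 0.07, 95% interval -0.07 to 0.23, adjusted p = 0.35), and both passed the FDR with a positive value under quantile normalization and with equal FPKM sums, as did Ifih1 at a pseudocount of 0.1 (0.19, adjusted p = 0.0095). The value of Mb21d1 was -0.91 under quantile normalization and -0.999 with equal FPKM sums, on the same side but short of 2-fold. The response in each genotype shares its untreated and LPS libraries with the genotype comparisons above.

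A ratio of FPKM between 2 genes of 1 library does not depend on a factor that multiplies the whole library. It shows only that the genes changed unequally. Quantile normalization is not such a factor, and the ratios were not computed under it. RIG-I and MDA5 together stood at 0.693 ± 0.014 times MAVS in untreated WT libraries and at 102 ± 9.64 times after LPS (SD, n = 3). In Pim1-/- libraries the ratio was 0.523 ± 0.022 untreated and 62.3 ± 0.413 after LPS. The summed receptor transcripts thus went from below the transcript of their adaptor to far above it in both genotypes. Protein was not measured in these libraries. The ratio was lower in Pim1-/- than in WT libraries in both treatments without overlap.

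The ratio of cGAS to STING was 0.079 ± 0.0050 in untreated WT and 0.165 ± 0.0065 in untreated Pim1-/- libraries. After LPS it was 0.949 ± 0.042 in WT and 0.755 ± 0.055 in Pim1-/- libraries. The genotypes did not overlap, and their order turned round with LPS, as it did for Mb21d1 itself.

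LGP2 against the sum of RIG-I and MDA5 was at 0.570 ± 0.027 and 0.519 ± 0.020 in untreated WT and Pim1-/- libraries and at 0.310 ± 0.0095 and 0.405 ± 0.019 after LPS. Its order between genotypes turned round with LPS as well. The ratio of PKR to HRI was 0.272 ± 0.0013 in untreated WT and 0.373 ± 0.017 in untreated Pim1-/- libraries, without overlap. After LPS it was 7.92 ± 0.523 and 7.03 ± 0.799, with means in the opposite order and overlap between the genotypes. MAVS stood at 0.842 ± 0.046 and 0.670 ± 0.036 times STING in untreated WT and Pim1-/- libraries and at 0.290 ± 0.024 and 0.357 ± 0.025 times after LPS, without overlap in either treatment and in opposite order. In an exact two-sided permutation test 3 against 3 libraries can reach no p below 0.10, which was the value for each ratio whose genotypes did not overlap.

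**Figure D5:**
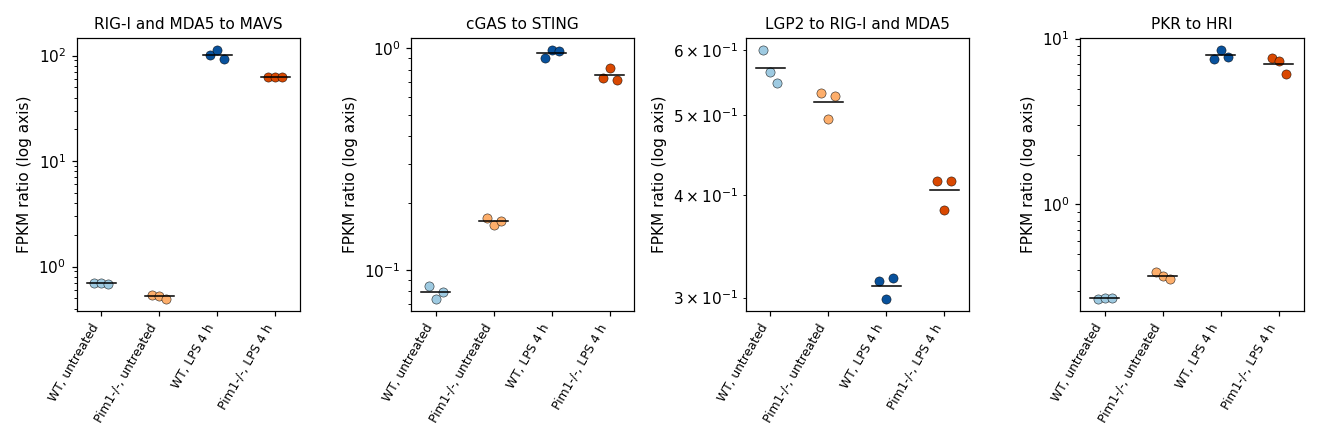
Ratios of FPKM within each library (points, log axes that differ between panels) with group means (lines), for RIG-I plus MDA5 over MAVS, cGAS over STING, LGP2 over RIG-I plus MDA5, and PKR over HRI. The ratio to MAVS runs from 0.498 to 112, and the order of the genotype means turns round with LPS for every ratio but that one, with overlap after LPS for PKR over HRI.

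Other genes of these routes were described from lists, whose counts stand beside 43.4% of all genes lower and 37.6% higher by FDR after LPS, and 44.2% and 34.6% untreated. By the 2-fold rule the shares of all genes were 5.15% and 3.51% after LPS and 3.37% and 4.40% untreated, and the medians of all genes were -0.03 and -0.05. Of 17 tested regulators of the RIG-I-like receptors, 0 were called between genotypes in either treatment. By FDR 11 were lower and 3 higher in Pim1-/- cells after LPS, and 12 lower and 5 higher untreated, with list medians of -0.34 and -0.25. The largest response to LPS in WT was that of Nlrc5, an NLR protein that transactivates MHC class I genes, from 2.38 ± 0.219 to 91.7 ± 1.98 FPKM, and in Pim1-/- cells it went from 1.80 ± 0.084 to 46.2 ± 2.64 FPKM (SD, n = 3).

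Among 19 genes that regulate cGAS and STING or clear their ligands, 2 were called after LPS and 5 without it. By FDR 8 were lower and 9 higher after LPS, and 13 lower and 6 higher untreated, with list medians of 0.06 and -0.26. Samhd1, a dNTPase, was lower in both treatments, with 54.8 ± 0.964 against 24.3 ± 0.018 FPKM untreated and 762 ± 7.94 against 313 ± 11.6 FPKM after LPS. Trex1, the exonuclease that degrades cytosolic DNA and had the largest LPS response of the list in WT, was called lower untreated, 33.5 ± 0.984 against 10.9 ± 1.17 FPKM, and had a log2 difference of -0.91 after LPS, with 706 against 375 FPKM. Rhbdf2, which encodes iRhom2, a stabiliser of STING, was called lower after LPS, 110.2 ± 3.78 against 53.3 ± 3.86 FPKM.

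In contrast, Banf1, which encodes a chromatin protein that keeps cGAS off nuclear DNA, was called higher in untreated Pim1-/- cells, 36.8 ± 2.08 against 76.7 ± 4.37 FPKM. Ulk1, an autophagy kinase, was called lower untreated (13.4 against 6.06 FPKM) and stood higher by FDR after LPS (1.25 against 3.41 FPKM). Its response to LPS differed between genotypes by 2.005 (SE 0.13, adjusted p = 5.2e-09). The fifth gene called untreated was Rnaseh2b, higher with 10.5 against 25.3 FPKM, which is named here because it was the last of a small count and was chosen after its values were seen.

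Of 18 shared kinases and adaptors upstream of IRF3 and NF-κB, 13 were lower and 1 higher after LPS by FDR, and 11 lower and 3 higher untreated, with list medians of -0.31 and -0.19. Irf7, the transcription factor that amplifies type I interferon and had the largest LPS response of the list, was called lower in both treatments, with 8.83 ± 0.372 against 2.02 ± 0.506 FPKM untreated and 818 ± 24.3 against 396 ± 16.4 FPKM after LPS. Ikbke, which encodes the kinase IKKε, was called lower untreated, 25.4 ± 1.93 against 9.06 ± 0.365 FPKM. Of the 7 genes of the ZBP1 death pathway 0 were called between genotypes, with 4 lower and 2 higher after LPS by FDR and 3 each way untreated, and list medians of -0.22 and -0.06. Mlkl, the executor of necroptosis, responded most to LPS, and its response in Pim1-/- cells minus that in WT cells was -1.0003 on the log2 scale (SE 0.08, adjusted p = 4.3e-08).

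Among 15 eIF2α kinases and their regulators, 1 was called, Ppp1r15b, a phosphatase subunit that removes the phosphate from eIF2α. After LPS it stood at 89.7 ± 1.03 FPKM in WT cells and at 40.8 ± 1.77 FPKM in Pim1-/- cells, and at 13.4 ± 0.641 and 14.6 ± 0.334 FPKM untreated. By FDR 6 genes were lower and 6 higher after LPS, and 3 lower and 7 higher untreated, with list medians of -0.03 and 0.07. Ppp1r15a, which encodes the related subunit GADD34, responded most to LPS, with 3.23 (SE 0.05) in WT and 3.31 (SE 0.05) in Pim1-/- cells.

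Of 18 other proposed sensors 5 were lower and 7 higher after LPS by FDR, and 5 lower and 11 higher untreated, with list medians of 0.05 and 0.17. Hmgb1, an abundant DNA-binding protein, was called higher in both treatments, with 80.9 ± 4.45 against 187 ± 15.8 FPKM untreated and 43.5 ± 0.907 against 126 ± 10.4 FPKM after LPS. Xrcc6, which encodes Ku70, was called higher after LPS, 1.81 ± 0.337 against 5.22 ± 0.103 FPKM. Ifi204, a DNA-binding protein of the interferon-inducible p200 family, had the largest LPS response of this list, with a log2 change of 5.51 (SE 0.07) in WT and 5.81 (SE 0.07) in Pim1-/- cells.

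The genes with the most similar pattern to each member were found by the root mean square difference of centred log2(FPKM + 1) over the 12 libraries, as a description. Ddx58 and Dhx58 were each other's nearest of all genes tested, at 0.090, followed for both by Irgm2, at 0.12 and 0.11. Nearest to Ifih1 were Igtp (0.11), Ifi204 (0.13) and Gbp6 (0.22), and nearest to Zbp1 were Irf7 (0.17), Nfkbiz (0.18) and Fam26f (0.18). Eif2ak2 was closest to A530032D15Rik (0.085), Gpr18 (0.10) and Setdb2 (0.11). Among genes that rose less or fell, Mb21d1 was closest to Lmo4 (0.077), Pfkp (0.095) and Elp5 (0.11), and Mavs to Atmin (0.059), Nt5dc2 (0.066) and Snx33 (0.066). For Tmem173 the nearest were Rnf41 (0.055), Clta (0.056) and Urb1 (0.056), and for Eif2ak1 Vps33a (0.043), Top3b (0.044) and Ppp3ca (0.052). A gene that moved little in all groups has many near neighbours by this measure.

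The labelled cell type was checked against markers. All 8 macrophage markers were present in every group, with summed levels of 27850 to 29900 FPKM in untreated WT and 14380 to 15300 FPKM in untreated Pim1-/- libraries, and 30800 to 31300 and 15920 to 17780 FPKM after LPS. All 8 were lower by FDR in Pim1-/- cells after LPS and 7 untreated, and 3, Csf1r, Mertk and Fcgr1, were called lower in both treatments. The sums were carried mostly by Lyz2, at 26300 and 13300 FPKM untreated. In bulk RNA fewer cells of a type and less RNA per cell cannot be told apart, and the part of these markers in the genotype differences of the members was not tested. Markers of 6 other cell types were low. The summed level of the 7 dendritic cell markers lay between 0.791 and 2.82 FPKM over all libraries, of the 5 T and NK cell markers between 0.110 and 0.787 FPKM, of the 4 B cell markers between 0 and 0.040 FPKM and of the 4 erythroid markers between 0 and 0.102 FPKM. Cd3e, Cd3g, Ncr1, Pax5, Hba-a1 and Hbb-bs were listed at 0 in all 12 libraries. The 5 neutrophil markers found summed to 1.10 to 1.72 FPKM in untreated WT and 2.94 to 3.81 FPKM in untreated Pim1-/- libraries, nearly all of it S100a8, and to 3.72 to 5.40 and 2.70 to 5.28 FPKM after LPS. The 5 stromal markers summed to 2.72 to 3.15 FPKM and 0.806 to 0.995 FPKM untreated, and to 3.73 to 4.74 and 0.984 to 1.64 FPKM after LPS.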

How the data were processed

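RNA-seq of 12 BMDM libraries was used. Per the submitters' processing notes, bcl2fastq 2.20.0.422, cutadapt 1.18, TopHat2 2.0.13, Cuffdiff 2.2.1 and the build mm10 were used, while the methods name rat rn5. The authors deposited a column of values per library, read here as FPKM from the use of Cuffdiff and from the values. No source used here gives the gene annotation. Values entered the fit as deposited. Genes at 1 FPKM or more in at least 3 libraries were kept, and log2(FPKM + 1) was fitted as 4 group means with limma (version 3.58.1, R 4.3.3) with a trend of variance on mean. Called genes changed over 2-fold with p under 0.05 and an FDR under 0.1, adjusted by Benjamini-Hochberg over all genes tested. FPKM holds no counts; from the steps of low values, 1 FPKM per kilobase was worth an estimated 20.8 to 46.2 fragments per library. The median CV between replicates was 3.03% to 5.12%.

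The members and lists were chosen with earlier results of these data known. Named genes were the 9 members and Pim1, the genes of each list called between genotypes (where over 5 were called, the 5 largest after LPS, with Rnaseh2b added after its values were seen), the gene of each list with the largest LPS response in WT, and the 3 nearest patterns per member. Same-numbered libraries deviated together without treatment between genotypes (r = 0.33, 0.37 and 0.46) and between treatments in Pim1-/- cells (0.43, 0.54 and 0.68), over 3646 genes. No correlation was computed between libraries of different numbers, so it is not known whether the numbers pair the libraries. The fit reported here has no block. After LPS (0.02, 0.37 and 0.19) and in WT cells (-0.10, 0.14 and 0.19) r was below the threshold of 0.1 for replicate 1. It was above it for replicates 2 and 3. Alternatives covered the pseudocount, filter, scaling, trend, thresholds, groups fitted, replicate block and each library left out. The test was also run on simulated data, with 200 of 10581 genes changed 3-fold in the Pim1-/- LPS libraries. It recovered 184 of them with 1 false call. The changed genes were drawn only from those with a mean log2(FPKM + 1) above 1 in WT LPS libraries. Each gene was given the same spread in all groups. All simulated libraries started from the WT LPS means, so they held no LPS response. The members differed by less than 2-fold between genotypes after LPS, so the recovery of 3-fold changes does not bear on them. Tables used pandas 2.3.3 and numpy 2.4.6 in Python 3.11.15, and figures matplotlib 3.10.9.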

Additional observations from a re-analysis of the deposited data

Results flagged for a closer look

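For 7 of the 9 members the change with LPS differed between genotypes by the test of that difference (limma, 3 libraries per group), a test that 35.8% of all genes passed with a lower and 32.7% with a higher value, so a count of this size is near that of all genes. As the change in Pim1-/- cells minus that in WT cells on log2(FPKM + 1), the values were 0.84 for Zbp1 (adjusted p = 2.1e-05), 0.73 for Dhx58 (adjusted p = 6.9e-08), 0.65 for Mavs (adjusted p = 7.7e-06), 0.49 for Ddx58 (adjusted p = 7.7e-06), 0.37 for Eif2ak1 (adjusted p = 4.1e-04), -0.26 for Eif2ak2 (adjusted p = 0.0025, and 0.029 with an adjusted p of 0.67 under quantile normalization) and -1.03 for Mb21d1 (adjusted p = 5.1e-09). For Mb21d1 the genotypes also stood in opposite order before and after LPS, with all 3 libraries of a genotype on 1 side each time.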

How the results depend on the processing

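Changing the filter, trend, groups fitted or replicate block leaves the log2 change of a member as it was. Those settings could move only its FDR. Of 720 values of single members under alternatives, these settings included, 693 kept their direction and their side of the FDR, 8 kept the direction and lost the FDR, 10 kept it and gained the FDR, and 9 changed sign. In 5 of the 9 neither value passed the FDR: Eif2ak1 with LPS in Pim1-/- cells (0.0035 and 0.018 with a library left out) and Ifih1 in the difference in LPS response (-0.0039 to -0.0016 with a library left out). The other 4 were Dhx58 after LPS under quantile normalization (0.083), Tmem173 and Eif2ak1 after LPS with equal FPKM sums (0.0198 each), and Eif2ak2 in the difference in LPS response under quantile normalization (0.029); the cause was not tested. Without a fold threshold and at an FDR under 0.05, 8 members were called after LPS, 8 untreated and 7 in the difference, against 0, 1 and 1. With a pseudocount of 0.1, which shrinks low genes less, 3 were called untreated and 2 in the difference, Mb21d1 and Zbp1. Under quantile normalization 2 were called untreated, Dhx58 and Zbp1. In the difference the 1 member called was Dhx58 under quantile normalization and Zbp1 with equal sums. With the replicate block the difference of Mavs after LPS kept its value of 0.10 with an adjusted p of 0.082, and the block changed no other call of a member. Over all genes, calls after LPS numbered 545 lower and 371 higher, but 377 and 610 with equal sums, and 725 and 717 with a pseudocount of 0.1. With no fold threshold at an FDR under 0.05 they were 4412 and 3782 after LPS, 4439 and 3465 untreated (357 and 466 with it), 4705 and 4748 with LPS in WT, 4508 and 4446 in Pim1-/- cells, and 3520 and 3137 in the difference. With LPS in WT cells they numbered 1556 lower and 2130 higher, but 4079 and 1236 with equal sums and 1807 and 1644 under quantile normalization, and in Pim1-/- cells 1103 and 1546, but 3146 and 1026, and 1352 and 1305. In the difference they numbered 469 and 237, but 423 and 413 with equal sums and 565 and 510 with a pseudocount of 0.1. Depth limits Zbp1 in untreated Pim1-/- cells most.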
